A study of Homo sapiens with 6 samples.

Results

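The p53 target genes described here are 37 genes listed as well-known targets of the transcription factor p53. They were taken as a fixed list by gene symbol, and all 37 were found among the 60612 genes of the expression tables. Their levels were measured by poly(A) RNA sequencing in HCT116, an established human colorectal carcinoma line with wild-type p53, in a study of the small nucleolar RNA SNORA28, whose H/ACA class guides pseudouridylation. The control lentivirus LV-NC was given to the cells of 3 libraries, and LV-SNORA28, which overexpresses SNORA28, to those of the other 3. RNA was taken after 72 h of infection. Both groups had received a lentivirus, so an effect of infection itself is in both. The sources used here do not say whether the 3 libraries of a group came from separate infections, so p-values measure only the spread between these libraries.

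p53 is kept low in unstressed cells because MDM2, a ubiquitin ligase that p53 itself induces, marks it for destruction. DNA damage, nucleolar stress and other signals release p53 from MDM2, and the stabilised protein then binds response elements near its target genes. The targets stop the cell cycle, repair DNA, adjust metabolism, start apoptosis or feed back on p53. p21, the product of CDKN1A, blocks cyclin-dependent kinases, and through the DREAM complex it lowers the transcription of many cell cycle genes. HCT116 is widely used to study this pathway.

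The genome around these genes was read for the sequence that p53 binds. A p53 response element is a pair of adjacent p53 decamers, 20 bases in all, each with a 4-base centre that starts with C and ends with G. Matches with no spacer, the outer bases of both centres kept and at most 2 other mismatches were sought on GRCh38 within 2500 bases of the start of the canonical transcript. The element reads nearly the same on both strands, so both were covered. Of the 37 genes, 15 (40.5%) had at least 1 match, against 3.76% of 19898 protein-coding genes. With at most 1 mismatch it was 6 (16.2%) against 0.518%. The list was made of known p53 targets, so this is a description and not a test. The following matches belong to genes whose values are described later, and are given in the orientation of the gene, with the 4-base centres in capitals.

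CDKN1A, chr6:36676449-36676468, plus strand, 2256 bases upstream: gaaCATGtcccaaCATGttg
MDM2, chr12:68808923-68808942, plus strand, intron 1: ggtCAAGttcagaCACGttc
GADD45A, chr1:67686775-67686794, plus strand, intron 3: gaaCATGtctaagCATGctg
BTG2, chr1:203303642-203303661, plus strand, 1868 bases upstream: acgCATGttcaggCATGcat
PLK2, chr5:58462274-58462293, minus strand, 2198 bases upstream: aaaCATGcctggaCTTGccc
GDF15, chr19:18385308-18385327, plus strand, 840 bases upstream: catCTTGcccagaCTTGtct
PMAIP1, chr18:59899549-59899568, plus strand, 438 bases upstream: gggCTTGtttaccCAAGtct
ZMAT3, chr3:179070188-179070207, minus strand, intron 1: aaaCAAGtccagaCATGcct

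The matches of PLK2 and ZMAT3 had 0 mismatches, that of GADD45A had 1, and the others shown had 2. AEN, CCNG1, DDB2, FAS, RRM2B, SPATA18 and TNFRSF10B also had a match, with 2 in CCNG1. BTG1 and DRAM1 were among the 22 genes without a match of these letters in this window. A match is a description of the sequence and not evidence of binding in these cells.

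The libraries matched their labels for the overexpressed gene. They were poly(A)-selected, so the values of the small nucleolar RNA SNORA28 check the labels only and do not give its level in the cells. SNORA28 was listed at 0 to 0.92 FPKM in LV-NC and at 13.66 to 15.2 FPKM in LV-SNORA28, where FPKM is a fragment count scaled to transcript length and to all mapped fragments of the library. The epithelial markers EPCAM, CDH1, KRT8, KRT18, KRT19 and CDX2 were listed at 3.47 to 411.55 FPKM in all 6 libraries, while VIL1 and CDX1 were at or near 0 (at most 0.04 FPKM). Of 8 markers of other cell types, 7 stayed at or below 0.22 FPKM and COL1A1 was at 3.16 to 4.46 FPKM, with overlapping groups. Transcripts encoded by the mitochondrion made up 42.7 to 47.7% of all FPKM in LV-NC libraries, against 35.9 to 38.3% under LV-SNORA28. FPKM is a share of all fragments, so each fit was repeated after rescaling to nuclear genes. Fewer cells that express a gene and less of its RNA per cell cannot be told apart in these bulk libraries.

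The targets were expressed over a wide range. In LV-NC, 18 of the 37 genes had a mean of at least 10 FPKM, another 18 lay between 1 and 10 FPKM, and SPATA18, a mitochondrial quality control gene, was listed at 0.02 to 0.05 FPKM. The highest levels per transcript length were those of SFN (149 ± 6.51 FPKM, SD, n = 3), which encodes the checkpoint protein 14-3-3 sigma, GDF15 (97.4 ± 8.40 FPKM) and CDKN1A (42.5 ± 1.28 FPKM). The LV-NC ranges of these 3 genes did not overlap. TNFRSF10B (31.0 ± 1.93 FPKM), TRIAP1 (29.2 ± 1.83 FPKM), FDXR (28.4 ± 1.6 FPKM) and GADD45A (27.0 ± 1.98 FPKM) came next, and neighbours in this order overlapped. CDKN1A lay at percentile 94.1 of the LV-NC means of all genes tested and MDM2 at percentile 71.3. At the lower end, APAF1, the scaffold of the apoptosome, had 2.16 ± 0.366 FPKM and POLK, a translesion DNA polymerase, 1.22 ± 0.153 FPKM.

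**Figure D1:**
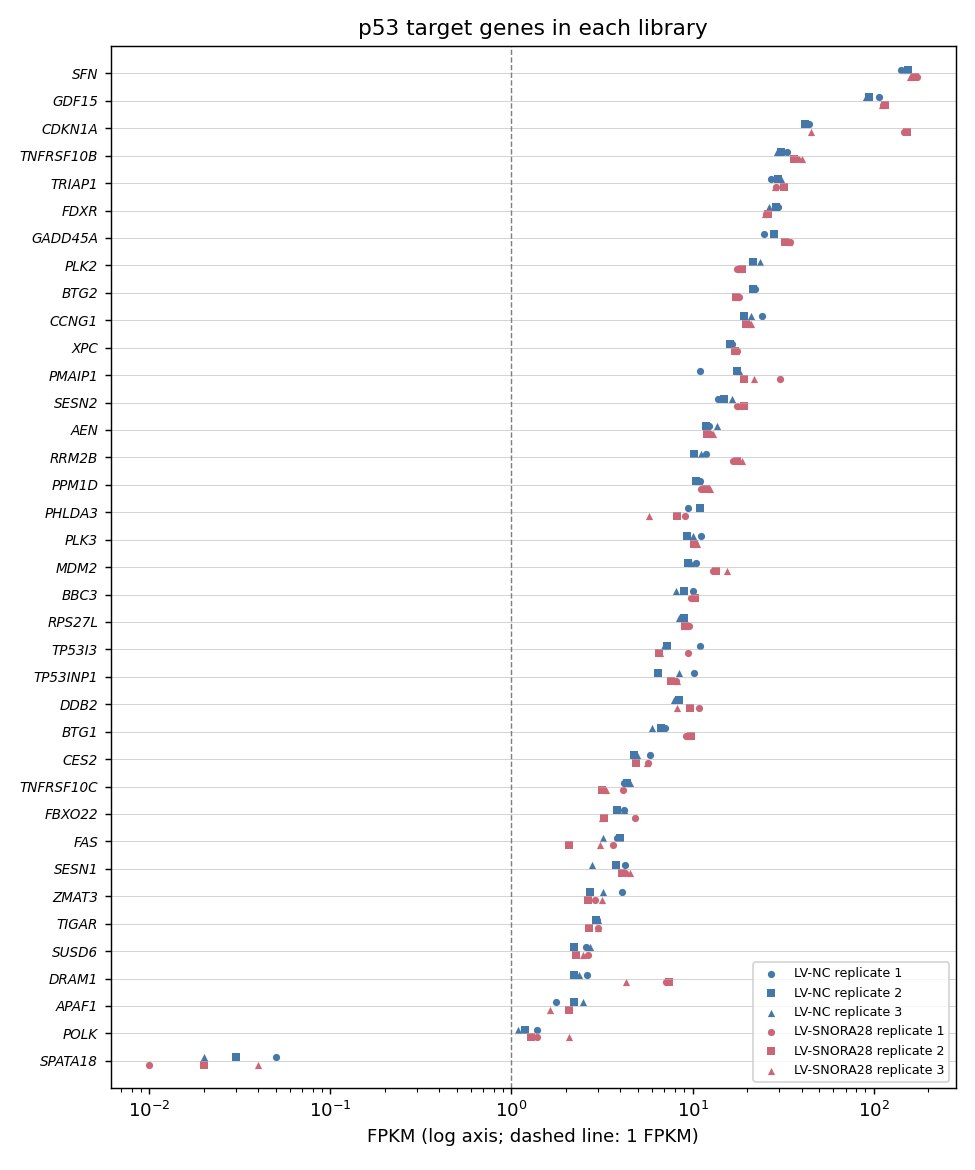
FPKM of the 37 p53 target genes (log axis) in each library, ordered by the LV-NC mean, with LV-NC in blue and LV-SNORA28 in red and a marker shape for each replicate. Levels run from SPATA18 below 0.1 FPKM to SFN near 150 FPKM, and CDKN1A shows LV-SNORA28 replicates 1 and 2 at 146.22 and 152.71 FPKM, apart from the other 4 libraries.

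Most targets did not pass the test after SNORA28, and those that did moved in both directions. The mean over all libraries reached 1 FPKM in 36 targets and in 12076 genes, which were fitted together in limma on log2(FPKM + 1). At an adjusted p of 0.05, 5 targets rose, 1 fell and 30 did not pass. The genes that rose were RRM2B, BTG1, DRAM1, MDM2 and GADD45A, and the gene that fell was BTG2. The 5 genes are 13.9% of those tested, against 6.81% of all genes, and the single lower gene is 2.78%, against 2.10%. With the filter raised to a mean of 5 FPKM, 5 of 26 targets rose, against 693 of 6241 genes, a larger background share than 6.81%. The median log2 fold change was 0.06 for the targets and 0.09 for all genes tested, with 21 targets above 0 and 15 below. Quantile normalization of the log2 values, which took the split of all calls from 822 higher and 254 lower to 451 and 375, gave 4 higher and 2 lower targets, and so did rescaling to nuclear genes. After quantile normalization the median was -0.0357 for the targets and -0.0013 for all genes tested. With any 1 library left out, 1 to 3 targets rose and 0 fell, and without the filter on low values only RRM2B and BTG1 passed in limma.

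The groups did not overlap for 18 of the 36 targets (50.0%), against 35.1% of all genes tested. Of the 36 targets, 13 had LV-SNORA28 above LV-NC without overlap, against 27.0% of all genes tested. Another 5 of the 36 had LV-SNORA28 below LV-NC without overlap, where the background share was 8.16%. The threshold of the study, more than 1.5-fold with an unadjusted p under 0.05, was passed by 3 targets in the same fit, all of them higher, namely CDKN1A, RRM2B and DRAM1. Among all genes tested 2.58% passed it in that direction and 1.22% in the other. With 0.1 added to FPKM in place of 1, 4 targets passed the threshold of the study. After quantile normalization, or with the filter raised to 5 FPKM, 2 did.

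**Figure D2:**
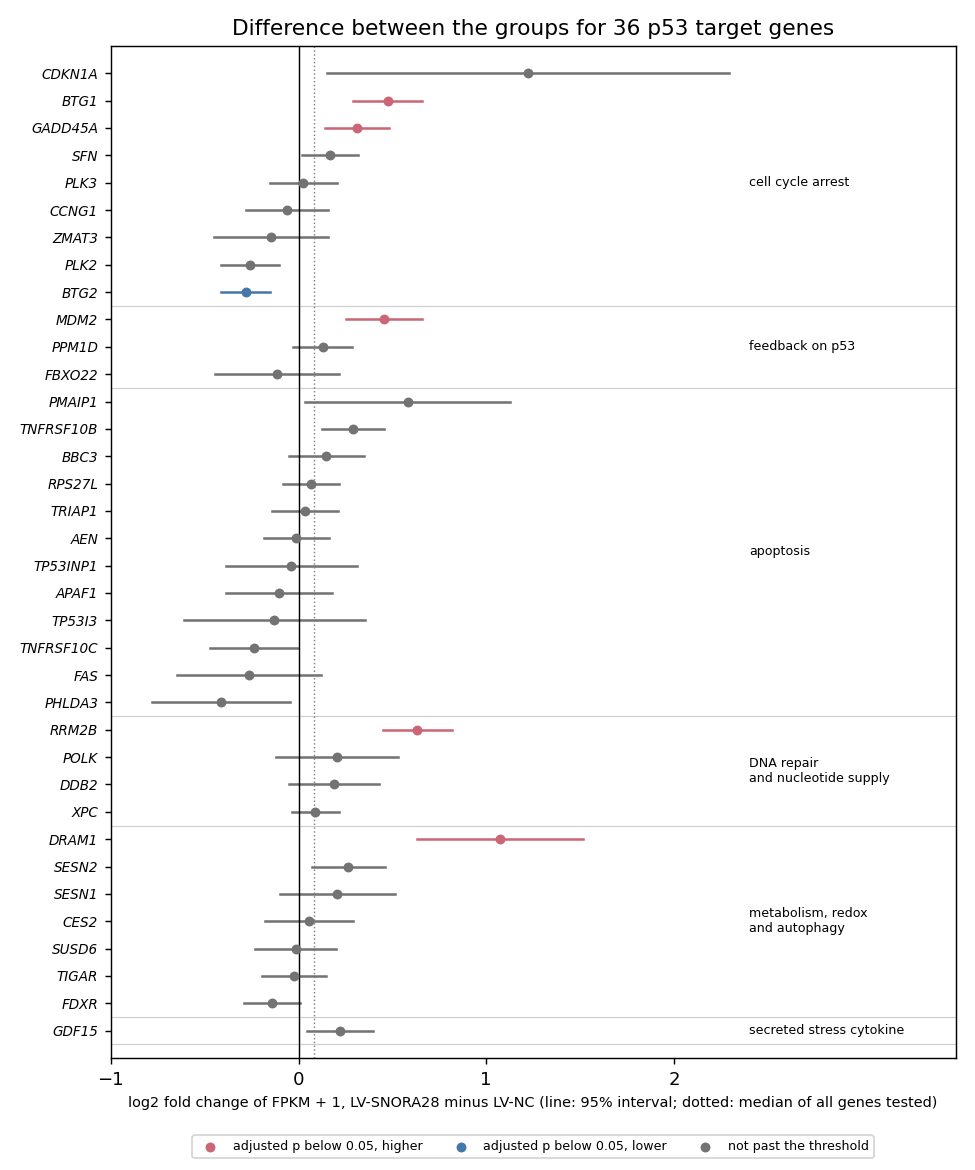
Log2 fold change of FPKM + 1 (LV-SNORA28 minus LV-NC) with its 95% interval in limma for the 36 targets tested, grouped by role, with genes past an adjusted p of 0.05 in red (higher) or blue (lower) and the median of all genes tested, 0.09, as a dotted line. CDKN1A has the highest value, 1.22, and the widest interval, and every interval among the 12 apoptosis genes belongs to a gene that did not pass.

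Among the 9 genes of cell cycle arrest, 2 rose, 1 fell and 6 did not pass. CDKN1A (ENSG00000124762; GRCh38 chromosome 6, 36676460 to 36687337, plus strand) encodes p21 and is a classic p53 target. It measured 43.96, 41.54 and 42.01 FPKM in the LV-NC libraries, against 146.22, 152.71 and 45.2 under LV-SNORA28. The means were 42.5 ± 1.28 and 115 ± 60.3 FPKM (SD, n = 3). LV-SNORA28 replicates 1 and 2 stood far above replicate 3, which lay just above the highest LV-NC library. Limma gave 1.22 as log2 fold change (SE 0.45, 95% interval 0.15 to 2.29, adjusted p = 0.134). Without LV-SNORA28 replicate 3 the log2 fold change was 1.79 with a limma adjusted p of 0.00424. Leaving out any other single library gave adjusted p-values of 0.216 to 0.304 in limma.

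The spread of CDKN1A within LV-SNORA28 was wide for a gene of its level. Its highest library was 3.38 times its lowest there, against 1.06 times in LV-NC. Of the 3413 genes tested with an LV-NC mean of at least 10 FPKM, 23 (0.674%) had a ratio as wide in LV-SNORA28. Among the other 35 targets tested the widest ratio in LV-SNORA28 was 1.75, in FAS. The lncRNA DINOL, which overlaps CDKN1A on the opposite strand, was listed at 0 to 0.13 FPKM. The cause of this spread was not tested.

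BTG1 and BTG2, a pair of antiproliferative genes of the same family, moved in opposite directions. BTG1 (ENSG00000133639; chromosome 12, 92140278 to 92145846, minus strand) measured 7.09, 6.71 and 6.0 FPKM in the LV-NC libraries, against 9.18, 9.85 and 9.62 under LV-SNORA28. There was no overlap between the groups, and limma gave 0.48 as log2 fold change (SE 0.08, adjusted p = 0.0181). Its adjusted p in limma was 0.0506 without LV-NC replicate 2, 0.0762 without LV-SNORA28 replicate 2 and 0.0718 without LV-SNORA28 replicate 3. BTG2 (ENSG00000159388; chromosome 1, 203305491 to 203309602, plus strand), which carries the upstream match shown above, measured 22.06, 21.56 and 21.22 FPKM in the LV-NC libraries, against 18.16, 17.31 and 17.37 under LV-SNORA28. All LV-SNORA28 libraries lay below all LV-NC libraries, and limma gave -0.28 as log2 fold change (SE 0.05, adjusted p = 0.0305). Leaving out any 1 of the 6 libraries gave BTG2 limma adjusted p-values from 0.0658 to 0.115.

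GADD45A (ENSG00000116717; chromosome 1, 67685201 to 67688334, plus strand), a stress sensor that acts at the G2 checkpoint, measured 24.68, 28.02 and 28.19 FPKM in the LV-NC libraries, against 34.58, 32.4 and 33.94 under LV-SNORA28. Its groups did not overlap, and limma gave 0.31 as log2 fold change (SE 0.07, adjusted p = 0.0465). The call was close to the threshold, with limma adjusted p-values from 0.0742 to 0.139 when any 1 library was left out, 0.0937 after quantile normalization and 0.0566 after rescaling to nuclear genes. PLK2, a polo-like kinase induced by p53, measured 21.33, 21.53 and 23.59 FPKM in the LV-NC libraries, against 17.65, 18.8 and 18.5 under LV-SNORA28. Its groups did not overlap either, but its log2 fold change of -0.26 had an adjusted p of 0.0561 in limma. It was 0.0227 after quantile normalization and 0.0453 after rescaling to nuclear genes, both in limma, and PLK2 is then the second lower target. SFN had 149 ± 6.51 FPKM in LV-NC and 167 ± 7.21 FPKM in LV-SNORA28 (SD, n = 3), with a log2 fold change of 0.17 and a limma adjusted p of 0.139. The log2 fold changes of CCNG1 (cyclin G1), PLK3 and ZMAT3, an RNA-binding protein and tumour suppressor, were -0.06, 0.03 and -0.15, and the groups overlapped in each.

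In the feedback loop on p53, MDM2 alone passed of 3 genes. MDM2 (ENSG00000135679; chromosome 12, 68808177 to 68845544, plus strand), the main ubiquitin ligase of p53, measured 10.39, 9.40 and 9.86 FPKM in the LV-NC libraries, against 12.95, 13.43 and 15.51 under LV-SNORA28. Every LV-SNORA28 library lay above every LV-NC library. The highest of them was replicate 3, the library in which CDKN1A was at 45.2 FPKM. Limma gave 0.46 as log2 fold change (SE 0.08, adjusted p = 0.0263). With any 1 library left out the adjusted p ranged from 0.0501 to 0.0790 in limma. PPM1D, the phosphatase Wip1 that dampens p53 signalling, had 10.7 ± 0.308 FPKM in LV-NC and 11.9 ± 0.651 FPKM in LV-SNORA28 (SD, n = 3), with a log2 fold change of 0.13 and a limma adjusted p of 0.254. FBXO22, an F-box protein that targets methylated p53, had a log2 fold change of -0.11 with overlapping groups.

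None of the 12 apoptosis genes passed an adjusted p of 0.05 in limma, where 6.81% of all genes tested rose and 2.10% fell, so few calls would be found among 12 genes at the background share. An unadjusted p below 0.05 was found for 4 of the 12, and for 28.0% of all genes tested. These 4 were TNFRSF10B, PHLDA3, PMAIP1 and TNFRSF10C, and their fold changes did not share a sign. TNFRSF10B, the TRAIL death receptor DR5, measured 33.09, 30.62 and 29.28 FPKM in the LV-NC libraries, against 37.81, 36.43 and 40.09 under LV-SNORA28. There was no overlap between the groups, and limma gave 0.29 as log2 fold change (SE 0.07, adjusted p = 0.0518), or 0.0394 with the filter raised to 5 FPKM. TNFRSF10C, a TRAIL receptor that lacks a death domain and acts as a decoy, measured 4.16, 4.35 and 4.53 FPKM in the LV-NC libraries, against 4.15, 3.18 and 3.34 under LV-SNORA28. Its groups were separated by only 0.01 FPKM in the listed values, with a log2 fold change of -0.24 and a limma adjusted p of 0.173. It overlaps another protein-coding gene model and a lncRNA on the same strand, so its reads are uncertain.

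The BH3-only genes of the p53 response differed in spread. PMAIP1, which encodes NOXA, measured 11.06, 17.67 and 18.15 FPKM in the LV-NC libraries, against 30.22, 19.24 and 21.9 under LV-SNORA28. LV-SNORA28 replicate 1 and LV-NC replicate 1 lay at the extremes, and the log2 fold change of 0.58 (95% interval 0.04 to 1.13) had an adjusted p of 0.157 in limma. BBC3, which encodes PUMA, had 9.03 ± 0.949 FPKM in LV-NC and 10.1 ± 0.272 FPKM in LV-SNORA28 (SD, n = 3), with overlapping groups and a log2 fold change of 0.15. PHLDA3, an inhibitor of AKT, measured 9.41, 10.94 and 10.85 FPKM in the LV-NC libraries, against 9.05, 8.19 and 5.77 under LV-SNORA28. Its log2 fold change was -0.41 (95% interval -0.78 to -0.04), with an adjusted p of 0.141 in limma. FAS, the CD95 death receptor, had 3.66 ± 0.391 FPKM in LV-NC and 2.93 ± 0.794 FPKM in LV-SNORA28 (SD, n = 3), with overlapping groups. It overlaps STAMBPL1 on the same strand and ACTA2 on the other. The remaining 6 genes, namely TP53I3, APAF1, AEN, TP53INP1, TRIAP1 and RPS27L, had log2 fold changes from -0.13 to 0.07 and overlapping groups.

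Among the 4 genes of DNA repair and nucleotide supply, RRM2B rose and the others did not pass. RRM2B (ENSG00000048392) encodes p53R2, the p53-inducible subunit of ribonucleotide reductase, which supplies deoxynucleotides for repair. It measured 11.86, 10.25 and 11.2 FPKM in the LV-NC libraries, against 16.83, 17.56 and 18.87 under LV-SNORA28. The lowest LV-SNORA28 library was well above the highest LV-NC library, and the spread within each group was small. Limma gave 0.63 as log2 fold change (SE 0.08, 95% interval 0.45 to 0.82, adjusted p = 0.00902). RRM2B had the lowest adjusted p of the 36 targets, and it passed in limma without each of the 6 libraries in turn, with adjusted p-values from 0.0207 to 0.0402. It also passed in limma under every other alternative tried. DDB2, a damage sensor of nucleotide excision repair, measured 8.42, 8.42 and 7.93 FPKM in the LV-NC libraries, against 10.85, 9.68 and 8.25 under LV-SNORA28. Its LV-SNORA28 replicate 3 fell among the LV-NC libraries, and its log2 fold change was 0.19 with a limma adjusted p of 0.275. XPC, which recognises DNA lesions, ranged from 16.12 to 16.43 FPKM in LV-NC and from 17.11 to 17.55 FPKM in LV-SNORA28. These narrow ranges did not overlap, yet the log2 fold change of 0.09 was at the median of all genes tested, and the limma adjusted p was 0.323. POLK had a log2 fold change of 0.21 with overlapping groups.

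Of the 8 genes of metabolism, redox control and autophagy, 7 were tested and DRAM1 rose. DRAM1 (ENSG00000136048; chromosome 12, 101877580 to 102012130, plus strand) encodes a lysosomal membrane protein through which p53 promotes autophagy. It measured 2.61, 2.22 and 2.36 FPKM in the LV-NC libraries, against 7.16, 7.44 and 4.28 under LV-SNORA28. All LV-SNORA28 libraries were above LV-NC, and replicate 3, the library with the lowest CDKN1A of the group, was also the lowest for DRAM1. Limma gave 1.07 as log2 fold change (SE 0.18, 95% interval 0.63 to 1.51, adjusted p = 0.0221). The adjusted p in limma was 0.0111 without LV-SNORA28 replicate 3, and between 0.0522 and 0.0727 without any of the other 5 libraries.

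The sestrins link p53 to mTORC1 and antioxidant defence. SESN2 measured 13.84, 14.96 and 16.6 FPKM in the LV-NC libraries, against 17.68, 19.23 and 18.19 under LV-SNORA28. There was no overlap between the groups, and limma gave 0.27 as log2 fold change (SE 0.08, adjusted p = 0.0898). SESN1 had 3.6 ± 0.741 FPKM in LV-NC and 4.27 ± 0.223 FPKM in LV-SNORA28 (SD, n = 3), and its groups overlapped. FDXR, the ferredoxin reductase of mitochondrial electron transfer, measured 29.71, 28.86 and 26.61 FPKM in the LV-NC libraries, against 25.55, 26.01 and 25.29 under LV-SNORA28, with a log2 fold change of -0.14 and a limma adjusted p of 0.194. TIGAR, which lowers glycolytic flux, CES2, a carboxylesterase, and SUSD6 had log2 fold changes of -0.02, 0.05 and -0.02, with overlapping groups. SPATA18 was too low to be tested.

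GDF15, a secreted stress cytokine of the TGF-beta family, measured 106.76, 94.83 and 90.54 FPKM in the LV-NC libraries, against 113.31, 115.41 and 111.31 under LV-SNORA28. LV-SNORA28 was higher in every library, yet GDF15 did not pass in limma (log2 fold change 0.22, SE 0.07, adjusted p = 0.111). The microRNA gene MIR3189 lies within GDF15 on the same strand.

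**Figure D3:**
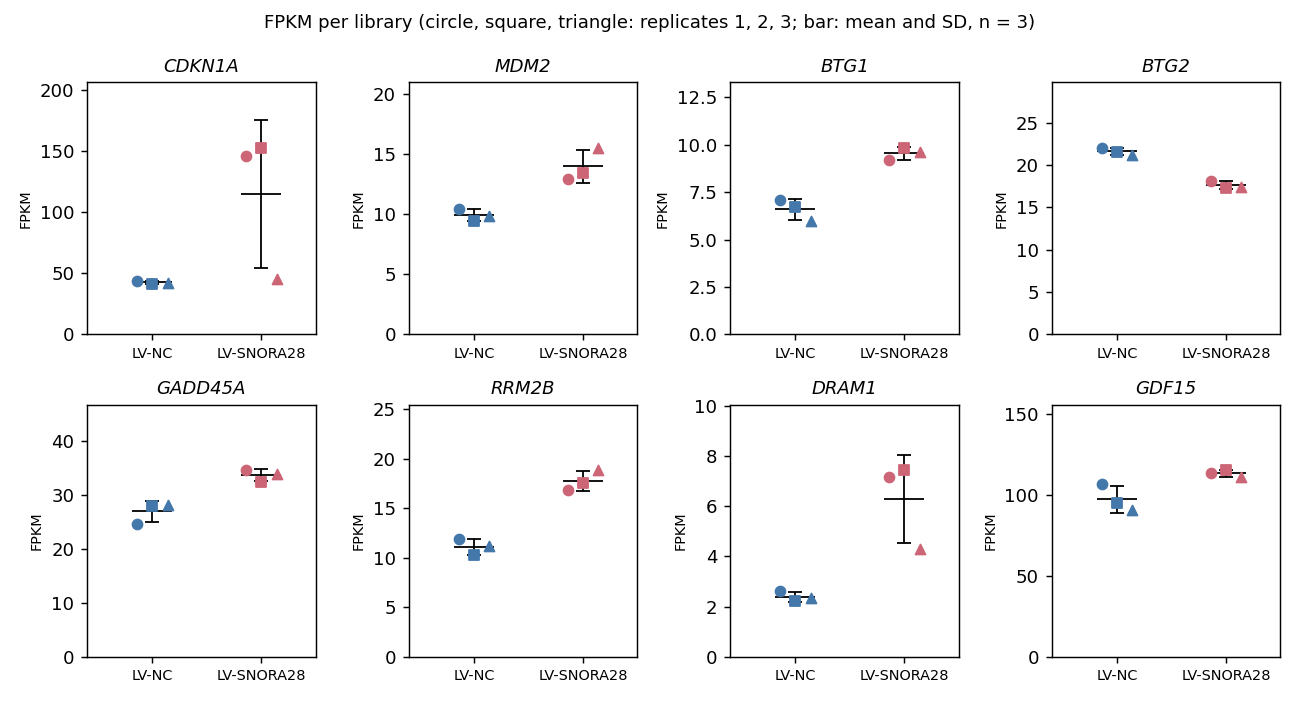
FPKM per library (axes start at 0) for CDKN1A, the 6 targets that passed and GDF15, with circle, square and triangle for replicates 1, 2 and 3 and bars for the mean and SD (n = 3). In CDKN1A and DRAM1 LV-SNORA28 replicate 3 (45.2 and 4.28 FPKM) lies below the other 2 of its group, while in MDM2 and RRM2B it is the highest, at 15.51 and 18.87 FPKM.

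The per-library differences show that only some targets were lower in LV-SNORA28 replicate 3 than in the other libraries of that group. Relative to the LV-NC mean, CDKN1A differed by 1.76, 1.82 and 0.09 on the log2 scale in LV-SNORA28 replicates 1, 2 and 3, and DRAM1 by 1.27, 1.31 and 0.64. MDM2 differed by 0.36, 0.41 and 0.60. The summed FPKM of the 37 targets ran from 661.6 to 675.1 in LV-NC and was 853.4, 837.5 and 723.0 in LV-SNORA28. Without CDKN1A the sums were 620.1 to 631.1 in LV-NC and 677.8 to 707.1 in LV-SNORA28.

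A further 81 reported p53 targets, compiled from general knowledge, were read from the same fit. Of these, 80 were matched by symbol and 66 passed the filter on low values. In limma 5 rose (7.58%, against 6.81% of all genes tested), 2 fell (3.03%, against 2.10%) and 59 did not pass, and their median log2 fold change was 0.02. SAT1, HSPA4L, DDIT4 and IER5 were among the genes that rose, and those that fell were THBS1 and EPHA2. SAT1, the rate-limiting enzyme of polyamine breakdown, measured 86.54, 74.87 and 55.2 FPKM in the LV-NC libraries, against 130.34, 126.66 and 114.65 under LV-SNORA28. Its log2 fold change was 0.79 with an adjusted p of 0.0342 in limma. HSPA4L, a heat shock protein, and DDIT4, an inhibitor of mTORC1, differed by 0.43 and 0.28 on the log2 scale (limma, adjusted p = 0.0288 and 0.0365). THBS1, the angiogenesis inhibitor thrombospondin-1, measured 3.43, 2.90 and 4.18 FPKM in the LV-NC libraries, against 1.74, 1.76 and 1.49 under LV-SNORA28, with a log2 fold change of -0.75 and a limma adjusted p of 0.0178. EPHA2, an ephrin receptor, had a log2 fold change of -0.36 and a limma adjusted p of 0.0188. These named genes passed in 0 to 3 of the 6 limma fits that left out 1 library. The direction of this count depended on the scale, since quantile normalization gave 0 higher and 4 lower genes in limma.

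Of 43 regulators and cofactors of p53, 4 rose (9.30%), 1 fell (2.33%) and 38 did not pass in limma, shares close to the 6.81% and 2.10% of all genes tested. MAPK14, the stress kinase p38 alpha that can phosphorylate p53, measured 5.90, 5.26 and 6.05 FPKM in the LV-NC libraries, against 2.58, 2.39 and 2.54 under LV-SNORA28. Every LV-SNORA28 library lay below every LV-NC library. Limma gave -0.94 as log2 fold change (SE 0.08, adjusted p = 0.00305). With any 1 library left out the limma adjusted p was 0.0113 to 0.0192. RCHY1, the ubiquitin ligase PIRH2 that acts on p53, measured 1.21, 1.24 and 1.61 FPKM in the LV-NC libraries, against 2.67, 2.45 and 2.81 under LV-SNORA28, with a log2 fold change of 0.63 and a limma adjusted p of 0.0162. The casein kinase genes CSNK2A1 and CSNK1A1 encode kinases reported to phosphorylate p53 or its partners. These 2 genes differed by 0.57 and 0.46 on the log2 scale (limma, adjusted p = 0.0425 and 0.0297). SIRT1, a deacetylase of p53, had a log2 fold change of 0.33 and a limma adjusted p of 0.0459. MDM4, the partner of MDM2, measured 2.11, 0.53 and 2.17 FPKM in the LV-NC libraries, against 0.94, 0.63 and 0.92 under LV-SNORA28. LV-NC replicate 2 was the lowest of all libraries for MDM4, the groups overlapped, and the limma adjusted p was 0.371. When 1 library was left out, the limma adjusted p of MDM4 ran from 0.0355 without LV-NC replicate 2 to 0.643 without LV-NC replicate 3. RCHY1, CSNK2A1, CSNK1A1 and SIRT1 passed in 0 to 3 of the 6 fits that left out 1 library.

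**Figure D4:**
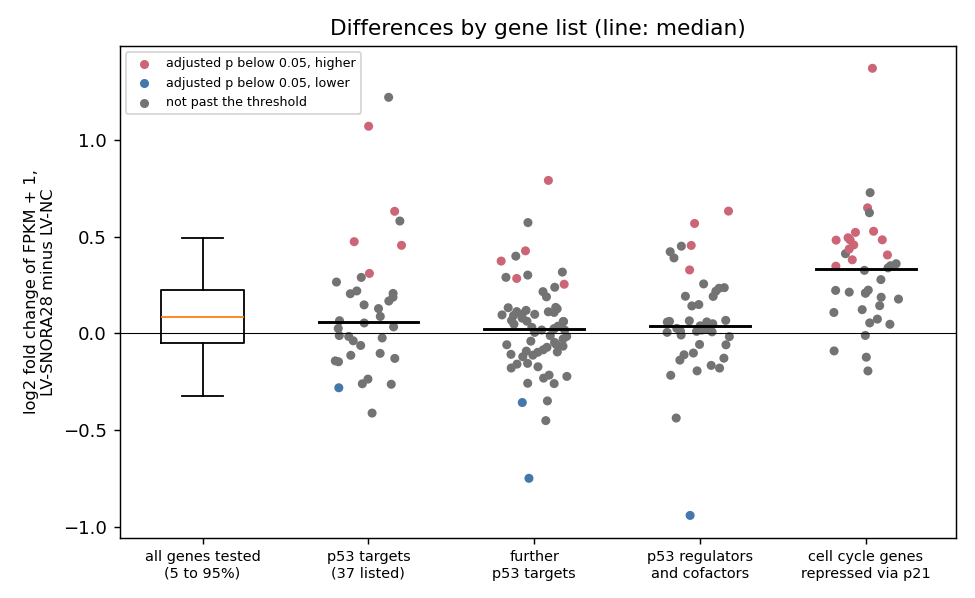
Log2 fold change of FPKM + 1 (LV-SNORA28 minus LV-NC) for all genes tested (box from percentile 25 to 75 with whiskers at percentiles 5 and 95) and for each gene of the 4 lists, with the list's median as a line and genes past an adjusted p of 0.05 in limma in red or blue. The medians are 0.06 for the p53 targets, 0.02 for the further targets, 0.04 for the regulators and 0.33 for the cell cycle genes. For all genes tested the median is 0.09. Quantile normalization gave -0.0357, -0.0674, -0.0386 and 0.25 for these lists, and -0.0013 for all genes tested. The sign turned for all lists but the cell cycle genes, as it did for the median of all genes tested.

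The cell cycle genes that p21 is known to repress were read as the downstream side of the pathway. Of 38 such genes, 13 rose (34.2%, against 6.81% of all genes tested), 0 fell and 25 did not pass in limma, and 3 to 10 passed with any 1 library left out. An unadjusted p below 0.05 was found for 24 of the 38, and for 28.0% of all genes tested. With the filter raised to a mean of 5 FPKM, 14 of 36 of these genes rose in limma. Among all genes tested at that filter 693 of 6241 rose, a larger background share than 6.81%. The median log2 fold change of the 38 genes was 0.33. MCM6, a subunit of the replicative helicase, measured 10.44, 11.43 and 13.88 FPKM in the LV-NC libraries, against 30.25, 32.35 and 34.26 under LV-SNORA28. Limma gave MCM6 a log2 fold change of 1.37 (SE 0.11, adjusted p = 0.00286), while the other helicase subunits in the list, MCM2, MCM3, MCM5 and MCM7, had values from -0.09 to 0.19 and overlapping groups. TOP2A, the DNA topoisomerase of mitosis, CKS2, a subunit of cyclin-dependent kinases, and CCNB1, cyclin B1, had log2 fold changes of 0.65, 0.53 and 0.52, with 0.0127, 0.00696 and 0.0128 as their adjusted p in limma. MCM6, TOP2A and CKS2 passed without each library in turn, and CCNB1 in 4 of the 6 fits.

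LV-SNORA28 replicate 3, in which CDKN1A was low, did not stand apart in the summed level of these genes. CCNB1 measured 45.9, 53.9 and 53.15 FPKM in the LV-NC libraries, against 73.08, 74.28 and 73.22 under LV-SNORA28 replicates 1, 2 and 3, where CDKN1A was at 146.22, 152.71 and 45.2 FPKM. The summed FPKM of the 38 genes was 984.5, 1090.0 and 1194.8 in LV-NC and 1313.5, 1383.7 and 1373.9 in LV-SNORA28. Every LV-SNORA28 sum lay above every LV-NC sum, and replicate 3 lay between the other 2. The sum hides genes that differed in replicate 3 in both directions. TOP2A measured 29.66, 30.51 and 34.85 FPKM in LV-SNORA28 replicates 1, 2 and 3, and UBE2C 86.75, 82.06 and 75.51 FPKM. A relation between CDKN1A and these genes was not tested.

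**Figure D5:**
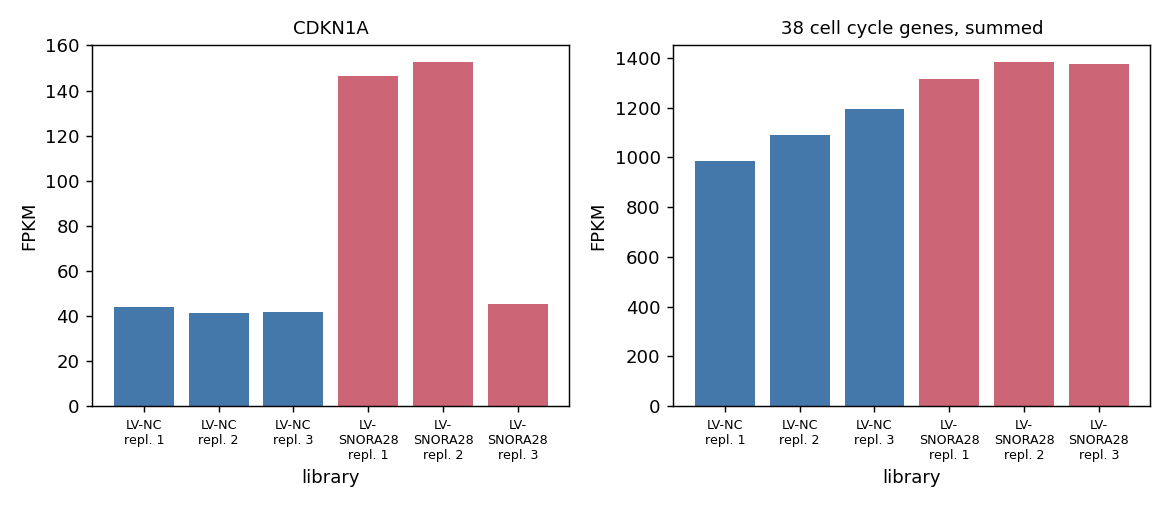
FPKM of CDKN1A (left) and the summed FPKM of the 38 cell cycle genes that p21 is known to repress (right) in each library, with LV-NC in blue and LV-SNORA28 in red and axes that start at 0. CDKN1A is at 146.22 and 152.71 FPKM in LV-SNORA28 replicates 1 and 2 and at 45.2 FPKM in replicate 3, while the summed level is 1313.5 to 1383.7 FPKM in all 3.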

How the data were processed

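Per the labels, total RNA was poly(A)-selected and made into dUTP-stranded paired-end libraries. The authors deposited 1 table of FPKM per library, and their processing notes name cutadapt 1.9, HISAT2 2.2.1, StringTie 2.1.6 and hg38. The annotation release, the strand setting and any filter were not given in the sources used here. Symbols and coordinates came from GENCODE 44 on GRCh38. Gene-level FPKM cannot separate overlapping genes with certainty. Depth is unknown: between 39.3% and 43.4% of low values in single-exon genes lay within 0.1 of a whole step, so reads were not recovered.

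Genes whose mean reached 1 FPKM were fitted as log2(FPKM + 1) with limma 3.58.1 in R 4.3.3 (lmFit, eBayes with a trend), two-sided, with Benjamini-Hochberg adjustment over all 12076 genes. This scale understates the change of low genes. With 3 libraries in each group, the smallest p an exact permutation test allows is 0.1.

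The targets, the other gene lists and the tests were chosen with earlier results of these data known. Full values are given for CDKN1A, MDM2 and every target past an adjusted p of 0.05. From each other list at most 4 genes in each direction were named, those with the largest change among the genes past that threshold. Some of these have only a log2 fold change and an adjusted p. IER5, PLK2, TNFRSF10B, TNFRSF10C, PMAIP1, PHLDA3, DDB2, FDXR, SESN2, GDF15 and MDM4 were given library by library or named beyond that rule, after their values were seen. Refits left out the trend or 1 library, applied quantile normalization or nuclear scaling, changed the filter, used 0.1 as pseudocount, or blocked on the replicate number. The values of 1 gene among the further targets are not reported here.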

Additional observations from a re-analysis of the deposited data

How the results depend on the processing

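The depth is unknown, so the precision of genes near 1 FPKM, such as POLK and RCHY1, rests on the spread between libraries. Replicate numbers showed no pairing, with deviations from the group means correlating at -0.04, 0.09 and 0.01 across genes. With the replicate number as a block, 2 targets rose, 0 fell, and 1 of the further targets and 3 of the regulators passed in limma, against 5, 1, 7 and 5 without it. Blocked libraries share only a replicate number in the labels, so the lower counts are not read as a weaker effect.

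Without a filter, where more genes were tested, 2 targets rose and 0 fell, and 1 further target, 1 regulator and 5 cell cycle genes passed. With a mean of at least 5 FPKM, 2 targets fell, the median log2 fold change of the targets was 0.11 and 3 regulators passed. Quantile normalization gave 2 lower targets, a median of -0.0357 and 4 further targets, and nuclear scaling gave 2 lower targets. With 1 library left out, 1 to 3 targets rose, 0 fell, 2 to 3 passed the threshold of the study, and the median ran from 0.0476 to 0.0972. The further targets ranged from 0 to 3, the regulators from 1 to 4 and the cell cycle genes from 3 to 10. These fits have fewer samples.

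Over the 36 targets and the alternatives, 400 of 458 values kept their direction and side of the threshold, 37 fell short of it and 5 came to pass it. Most targets had not passed and kept their side by staying unpassed, whereas all 37 belong to the 6 targets that had passed. Of the 6 fits that left out 1 library, RRM2B passed in 6, BTG1 in 3 and DRAM1 in 1. MDM2, GADD45A and BTG2 passed in 0 of these fits. The remaining 16 of the 458 values changed sign, all in targets that had not passed. Under quantile normalization they were PLK3 (-0.0681), TRIAP1 (-0.0546), RPS27L (-0.0269) and CES2 (-0.0445). With 1 library left out, the log2 fold change ranged from -0.1345 to 0.0226 for CCNG1, -0.0278 to 0.0838 for PLK3, -0.2862 to 0.0609 for TP53I3, -0.0509 to 0.0398 for AEN, -0.1916 to 0.0999 for TP53INP1, -0.0151 to 0.0726 for TRIAP1, -0.0449 to 0.0169 for TIGAR and -0.0767 to 0.0294 for SUSD6. The sign changed without LV-NC replicate 1 (CCNG1, TP53I3, TP53INP1, TRIAP1, SUSD6), 2 (PLK3) or 3 (AEN, SUSD6), or without LV-SNORA28 replicate 2 (AEN, TRIAP1, TIGAR, SUSD6). The cause was not tested.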
